A study of Mus musculus with 4 samples.

Results

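The miRNAs numbered miR-680 to miR-721 are a block of consecutive names given to small RNAs cloned from rodents, most of them not known outside rodents. They were measured here by 41 mouse-named probes, chosen by name alone: a mouse prefix, a name from miR-680 to miR-721, no star and no mismatch tag. These were 41 of the 785 miRNA probes on the array and of its 1406 probes in all, and no probe was named for miR-716. A miRNA is cut from the stem of an RNA hairpin and guides silencing proteins to messenger RNAs through its seed, bases 2 to 8, so a genuine member of the class needs a precursor that folds back on itself. Names from early small-RNA cloning are known to include fragments of more abundant RNAs. miR-720, for example, is known as a piece of a transfer RNA, and mouse miR-712 as a product of the spacer of the ribosomal RNA precursor.

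The study asked which miRNAs follow the receptor tyrosine kinase KIT in mouse mast cells. Primary bone-marrow-derived mast cells (BMMC), which had been cultured in interleukin 3 and stem cell factor (SCF, the ligand of KIT), were either starved of SCF or given SCF at 100 ng per cc for 24 h. P815, a mast cell line that needs no cytokine in its medium, has a D814V KIT per the labels. It was either left untreated or given the KIT inhibitor imatinib at 10 nM for 24 h. D814V is the mouse counterpart of a human KIT mutation known for poor inhibition by imatinib. The arrays give no measure of KIT activity or of the KIT sequence, and the labels name no mouse strain or age. The groups are called starved BMMC, SCF-treated BMMC, untreated P815 and imatinib-treated P815 below, and lists of 4 values keep this order (the plots write without or with SCF or imatinib). Each of the 4 groups was 1 array, so every difference below describes a pair of arrays and none has a replicate error or a test.

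A probe is called listed on an array where the authors' processed table gives it a value, which was the case at or above 1.5 times that array's median mismatch probe, a measure of background. That median was 295.8 in starved BMMC, then 277.2, 203.0 and 180.0 on the other arrays. Virus and worm probes, which have no known target in most mouse cells, were listed at 60, 35, 32 and 39 of 107 in the same order, so a listed probe is not by itself evidence of its miRNA. Mast cell messenger RNA markers cannot be seen on a miRNA array. Of 6 haematopoietic miRNAs, 6 were listed in starved BMMC, 5 in SCF-treated BMMC and 3 in each P815 array (miR-142-5p, miR-155 and miR-21), where miR-223 and miR-142-3p were not listed. Of 15 miRNAs of other cell types, 6, 2, 5 and 3 were listed in the same order, with a summed intensity of 8871, 6069, 4985 and 5158. Among these 15, the muscle miR-206 and the liver miR-122a were listed on every array, and the erythroid miR-144 in starved BMMC and untreated P815. The miR-206 probe read 2653, 1606, 1238 and 1475, above miR-223 on each array (1101, 717, 160 and 148). The lymphocyte miR-150 and the erythroid miR-451 were listed on none. The part of these miRNAs in the results was not tested.

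Of the 41 miRNAs, 33 have a gene in the RefSeq table of assembly GRCm38.p6 and 8 have none: miR-685, miR-689, miR-696, miR-699, miR-712, miR-714, miR-715 and miR-720. A mature sequence was matched for 30. These are credited to RefSeq on GRCm38.p6 and run from 19 to 23 bases. The sequences below belong to the miRNAs that the later differences turn on and are written 5′ to 3′ with the seed in capitals. The first 3 had some of the brightest probes of the block on every array.
miR-690: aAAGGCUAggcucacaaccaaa
miR-691: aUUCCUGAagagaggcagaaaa
miR-705: gGUGGGAGguggggugggca
The next ones are shown because their normalized values in untreated P815 stood apart from the other arrays. miR-698 has a product from each arm of its hairpin, and the probe name does not say which one it reads.
miR-703: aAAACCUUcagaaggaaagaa
miR-713: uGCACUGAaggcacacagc
miR-698-5p: uGUGGGUGggacagggauguu
miR-698-3p: cAUUCUCGuuuccuucccu
The last ones were dimmer in P815 than in BMMC. The arm of the miR-700 probe is likewise not named.
miR-700-5p: uAAGGCUCcuuccugugcuugc
miR-700-3p: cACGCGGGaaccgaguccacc
miR-718: cUUCCGCCcggccgggugucg

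These sequences have little in common. miR-705 is 70.0% G, miR-718 is 81.0% G plus C with no A, and miR-703 is 57.1% A. No seed was shared between miRNAs of the block with a sequence, and 6 of the 30 shared a seed with a mouse miRNA outside it. miR-705 shares its seed with miR-6922-5p, miR-6993-5p and miR-7008-5p. miR-708-5p has the seed of miR-28a-5p, and miR-721 has that of the miR-130 and miR-301 family, as its sequence beside that of miR-130b-3p shows.
miR-721: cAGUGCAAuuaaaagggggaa
miR-130b-3p: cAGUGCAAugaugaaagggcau
Among the 24 miRNAs with a single matched product, the mean normalized log2 level over the 4 arrays correlated with the percent of A at r = 0.37, of G at 0.32 and of G plus C at 0.00. Over the 17 of them that were listed, these values were 0.40, 0.05 and -0.18, and over the 7 not listed 0.098, 0.50 and 0.19. These are descriptions across probes that share the same arrays and differ in how well each binds.

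The 30 miRNAs with a sequence lie on 14 chromosomes, and 26 of them fall inside the bounds of another annotated gene at 1 or more loci. For 21 of the 26 that gene runs on the same strand, for 1 on the opposite strand only, and for 4 its strand was not given in the table used. On GRCm38.p6, miR-690 lies at chr16:28599940-28599961 on the minus strand inside Fgf12, and miR-691 at chr16:74342005-74342026 on the minus strand inside Robo2. miR-705 lies at chr6:85336341-85336360 on the minus strand inside Rab11fip5, a gene of vesicle recycling. miR-703 lies at chr5:98475616-98475636 on the minus strand inside the bounds of Cfap299, and miR-713 at chr13:62760807-62760825 on the plus strand inside Platr25. miR-700 falls inside Rcan3, with its 5p product at chr4:135416601-135416622 on the minus strand. miR-718, at chrX:74023857-74023877 on the minus strand, lies inside Irak1, which encodes a kinase of innate immune signalling. miR-698 lies in Inpp5b on the plus strand, with its 5p product at chr4:124743818-124743838, where the gene Gm12915 runs on the other strand. Whether each site is exonic or intronic was not looked up, since no exon annotation was used here. The miRNA known to lie opposite its surrounding gene was miR-695, at chr2:155356831-155356852 on the plus strand inside Pigu, which runs on the minus strand.

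The predicted hairpins had a weaker median fold than other mouse miRNA precursors. Over the 31 hairpins of the block in the RefSeq table, the median folding energy predicted by RNAfold was -0.33 kcal/mol per base, against -0.41 over the 974 other mouse hairpins. Energies at or above -0.297, the level that 10% of the other hairpins reached, were found for 9 of the 31 (29.0%), with miR-686 at -0.298 just outside. miR-721 (-0.18 kcal/mol per base), miR-703 (-0.18) and miR-691 (-0.20) were the weakest of the block. At most 0.3% of the other hairpins had an energy as weak as these 3. The bright miR-690 had -0.27 kcal/mol per base, while miR-718 (-0.62) and miR-693 (-0.67) had the strongest predicted folds. Hairpin energy and mean normalized log2 level correlated at r = 0.26 over the 27 miRNAs with a hairpin, a description across probes.

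**Figure D1:**
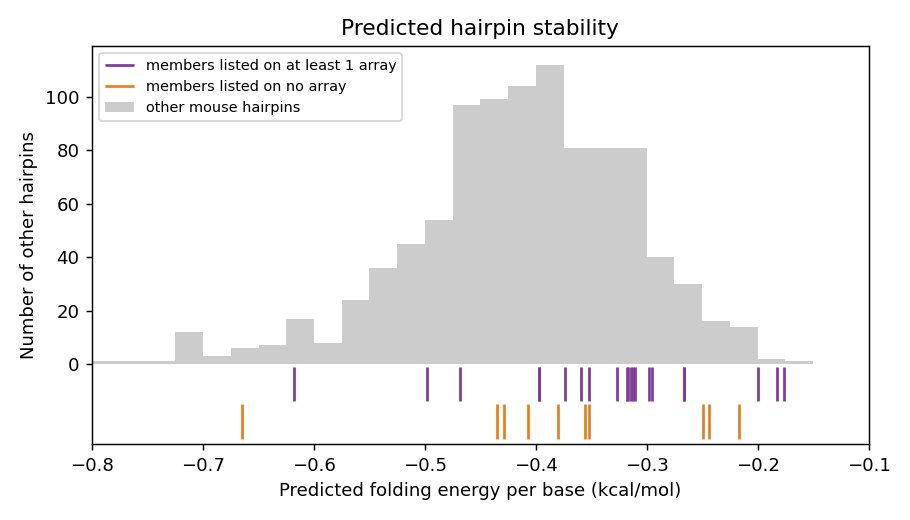
Predicted folding energy per base (kcal/mol, x axis; weaker folds to the right) for 974 other mouse hairpins (grey bars, number per bin) and, as ticks below 0, for the hairpins of miR-680 to miR-721, split by whether the miRNA was listed on at least 1 array. The median of the block, -0.33, lies to the right of the other hairpins' median of -0.41.

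The sequence of miR-706 is shown because part of it recurs in the genome: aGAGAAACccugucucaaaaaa. Its first 15 bases, AGAGAAACCCTGTCT as DNA, occur on either strand in 46 of 32851 mouse promoter windows of RefSeq (0.14%), each running from 250 bases before to 50 after a gene start. Of 1674 mouse mature sequences, 1515 had their first 15 bases in 0 windows and 4, miR-706 included, had them in at least 46. As background, the end of the mouse B1 repeat is known to read this way. The miR-706 probe read 907 in starved BMMC, 480 in SCF-treated BMMC, 326 in untreated P815 and 527 in imatinib-treated P815. It was listed on each array and stayed within 2-fold in all 4 comparisons.

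Of the 41 miRNAs, 29 were listed on at least 1 array, 18 on all 4 and 12 on none. By array, 29 (70.7%) were listed in starved BMMC, 23 (56.1%) in SCF-treated BMMC, 18 (43.9%) in untreated P815 and 24 (58.5%) in imatinib-treated P815. The other 115 mouse-named probes gave 61.7%, 40.0%, 35.7% and 40.9% in the same order, and virus and worm probes 56.1%, 32.7%, 29.9% and 36.4%. The 8 entries without a gene were all listed in starved BMMC, as were 21 of the 33 with one. Of the 29, miR-681, miR-682, miR-699, miR-701 and miR-715 were listed in starved BMMC and on no other array. The 12 listed nowhere were miR-684, miR-687, miR-688, miR-692, miR-693, miR-694, miR-697, miR-702, miR-707, miR-708, miR-717 and miR-719. Among them is miR-708, which lies in Tenm4 and is known in mouse for its induction by stress of the endoplasmic reticulum. Its probe read 368, 264, 239 and 202 in the usual order, at most 1.24 times the mismatch median. Whether such a miRNA is absent cannot be told at this brightness.

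The brightest probe on every array, of all 785, was that of miR-709, a miRNA known in mouse for acting in the nucleus on the processing of miR-15a and miR-16-1. It read 43782 in starved BMMC, 34823 in SCF-treated BMMC, 29444 in untreated P815 and 44147 in imatinib-treated P815. Quantile normalization gives the brightest probe of each array the same value, so its normalized difference is 0 in every comparison by construction. Against the mismatch median its signal was 148-fold, 126-fold, 145-fold and 245-fold in the same order, highest in imatinib-treated P815. The files give no saturation flag, and brightness also depends on how each probe binds.

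miR-690, which is known in mouse from macrophages as a miRNA that raises insulin sensitivity, read 26288 in starved BMMC, 13960 in SCF-treated BMMC, 4229 in untreated P815 and 9766 in imatinib-treated P815. It was listed on all arrays and was dimmest in untreated P815, yet held rank 6, 9, 8 and 2 of the 785 probes. miR-685 read 1804, 1200, 706 and 1382 in the same order, and miR-711, which lies in the collagen gene Col7a1, read 1411, 933, 583 and 744. On the normalized scale neither differed by 2-fold in any comparison. miR-696, known in mouse muscle as a repressor of the mitochondrial regulator PGC-1alpha, read 1258, 643, 406 and 694 and likewise stayed within 2-fold. In BMMC it had the lowest SCF difference of the block, at -0.59 on the log2 scale.

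**Figure D2:**
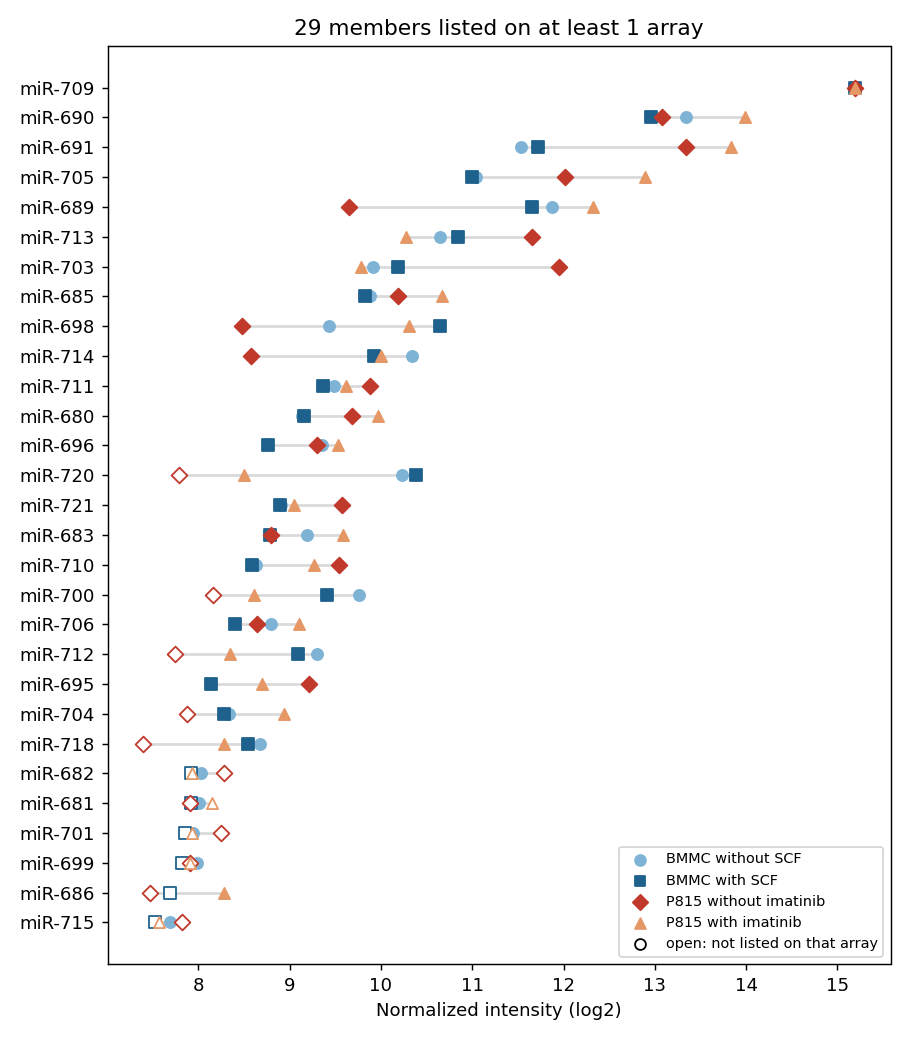
Normalized intensity (log2, x axis) on each of the 4 arrays for the 29 miRNAs listed on at least 1 array, ordered by their mean; filled symbols are listed and open symbols not listed on that array. miR-709 lies at the top with 1 shared value, and untreated P815 (red diamonds) is the lowest array for miR-689, miR-698 and miR-714 and the highest for miR-703 and miR-713.

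The values compared next are log2 intensities after background correction and quantile normalization over the 4 arrays. They are relative to the other miRNA probes of the same RNA, so less of a miRNA per cell and fewer cells that contain it cannot be told apart. Compared were the miRNAs with a listed value on either array of a pair. Of the 29 listed somewhere, 13 (44.8%) reached 2-fold in 1 or more of the 4 comparisons, against 38.7% of all 491 probes listed on at least 1 array and 26.7% of 60 virus and worm probes.

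In BMMC, SCF went with 1 difference of 2-fold in the block. Of 29 listed miRNAs, only miR-698 (1 of 29) was higher with SCF by 2-fold or more and 0 were lower by that much, against 2.08% higher and 0.0% lower among all 481 listed miRNA probes. The miR-698 probe read 1302 without SCF and 2246 with SCF, brighter with SCF while 28 of the 29 were dimmer. On the normalized scale miR-698 was 2.31-fold higher with SCF. The other 28 lay between -0.59 and 0.27 on the log2 scale, and the median of the 29 was -0.09, against -0.05 over all listed probes. Virus and worm probes spread by 0.30 (SD) in this comparison. Of 60 listed, 1 (1.7%) was 2-fold higher with SCF, at 1.41 on the log2 scale, above the 1.21 of miR-698.

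The miR-698 call depended on the scaling. Before scaling, all listed probes had a median log2 difference of -0.64 with SCF. Without scaling 0 of the 29 were 2-fold higher and 3 lower, beside 2 and 34 of all 481 probes. In the authors' processed values 0 of the 29 were higher and 18 lower, beside 3 and 222 of 479 probes, whose median was -0.95. miR-698 still lay above 0 under each of the 9 alternatives, between 0.71 and 1.46. Alternatives that change only the listing rule or use bounds return the main value for a miRNA listed on both arrays, as miR-698 was.

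In P815, more miRNAs of the block stood apart with imatinib. Of 24 listed, 4 were higher by 2-fold or more and 2 were lower by as much. Among all 336 listed miRNA probes 11.3% were higher and 5.06% lower, so the counts of 4 and 2 are close to the background. The median of the 24 was 0.49 on the log2 scale, with 17 above 0. Over all listed probes the median was -0.03, and over the 41 listed controls from viruses and worms it was 0.09. Of these controls, 5 (12.2%) passed 2-fold upward with imatinib and 0 downward. Their SD was 0.64 and their range ran from -0.68 to 2.16, which takes in miR-698 (1.83), miR-714 (1.42) and miR-704 (1.07). Outside this range lay miR-689 (2.67), miR-703 (-2.17) and miR-713 (-1.38).

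The largest difference was that of miR-689, an entry with no gene in the reference table. It read 505 in untreated P815 and 3584 with imatinib, beside 8675 in starved BMMC and 5083 in SCF-treated BMMC. The low array was thus untreated P815, and the other 3 were bright. The normalized difference was 6.35-fold higher with imatinib, and under the 9 alternatives it lay between 2.13 and 3.07 on the log2 scale.

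miR-714, also without a gene in the table, read 320 in untreated P815 and 950 with imatinib, beside 2454 in starved BMMC and 1256 in SCF-treated BMMC. It was 2.67-fold higher with imatinib. miR-698 read 312 without imatinib and 1158 with imatinib, and was 3.55-fold higher. For both, untreated P815 was again the lowest of the 4 arrays. There miR-714 lay at 1.58 and miR-698 at 1.54 times the mismatch median, close to the listing limit of 1.5, so their fold differences rest on values near background. miR-704, which lies in Pdia4, a gene of protein folding in the endoplasmic reticulum, read 668 and 451 in BMMC without and with SCF, 253 in untreated P815, where it was not listed, and 444 with imatinib. Its difference is open-ended and was at least 1.47-fold, so it passes 2-fold only as measured.

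The 2 miRNAs lower with imatinib were miR-703 and miR-713. The miR-703 probe read 1667 in untreated P815 and 823 with imatinib, beside 1828 in starved BMMC and 1434 in SCF-treated BMMC. It was 4.50-fold lower with imatinib on the normalized scale, while the ratio of the intensities themselves was 0.494. The miR-713 probe read 1494 in untreated P815 and 1148 with imatinib, and 2994 and 2601 in BMMC without and with SCF. It was 2.61-fold lower after normalization, with an intensity ratio of 0.768. Both miRNAs were listed on all 4 arrays. Their printed sequences share no seed.

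miR-690, at 0.92 on the log2 scale with imatinib, lay just under the 2-fold limit, and miR-704, at 1.07, just over it. The numbers on either side moved with the scaling. With median centring 9 of 24 were higher and 1 lower, beside 74 and 4 of all 336 probes, whose median was 0.44. Without scaling 8 were higher and 1 lower, beside 71 and 4 of all probes, whose median was 0.43. In the authors' processed values 4 of 20 were higher and 2 lower, beside 35 and 33 of 306 probes. The 3 higher miRNAs measured on both arrays (miR-689, miR-698 and miR-714) and miR-703 passed 2-fold under all 9 alternatives. miR-703 lay closest to the limit with median centring, at -1.04. miR-713 passed under 7 of the 9, lying at -0.36 at the closest to 0. All of these were listed on both arrays. For them, alternatives that change only the listing rule or use bounds return the main value by construction and could not move it.

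The treatments share no array, so their differences can be set side by side by KIT state, with KIT taken as active in untreated P815 and in BMMC given SCF. Of 24 miRNAs of the block listed in both comparisons, 15 (62.5%) had the same sign of the KIT-active side in both, against 52.5% of all 326 listed probes and 73.2% of 41 virus and worm probes. None of the 24 was 2-fold apart in the same direction in both. miR-689 (-0.22 with SCF and 2.67 with imatinib) and miR-714 (-0.42 and 1.42) were lower on the KIT-active side in both cell types. miR-703 (0.27 with SCF and -2.17 with imatinib) and miR-713 (0.20 and -1.38) were higher on that side in both. With miR-704 (-0.06 and 1.07), 5 of the 6 past 2-fold with imatinib had the same KIT-active side in BMMC, as did 38 of the 51 of all probes past 2-fold with imatinib (74.5%). Of the first 4, only miR-714 had an SCF difference larger than the virus and worm probes' SD of 0.30. miR-698 was higher on the KIT-active side in BMMC (1.21 with SCF) and lower on it in P815 (1.83 with imatinib).

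**Figure D3:**
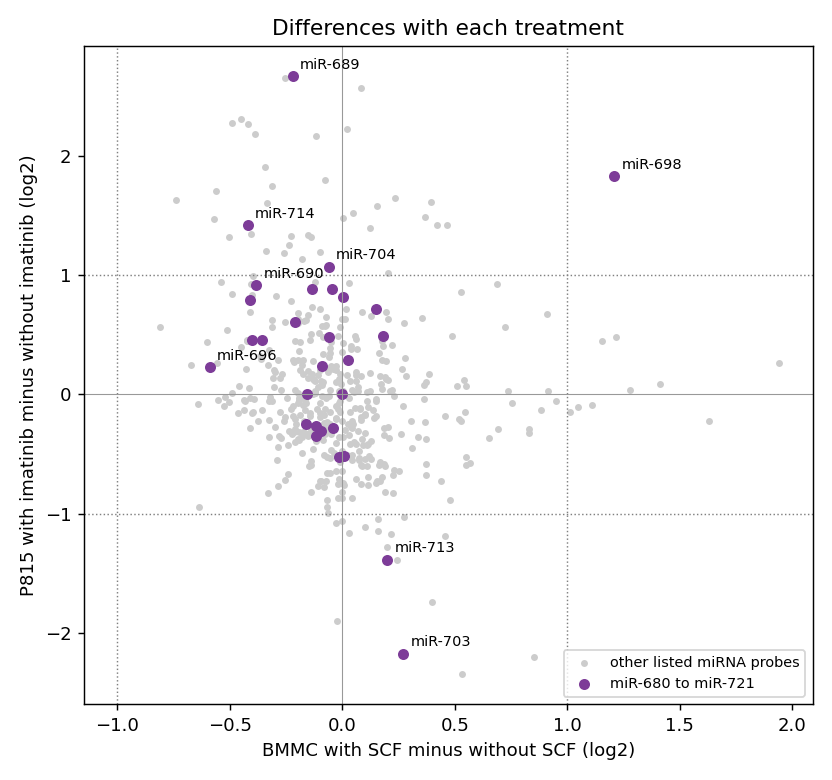
Log2 difference with SCF in BMMC (x axis) against the log2 difference with imatinib in P815 (y axis) for the 29 miRNAs of the block listed on at least 1 array (purple) and the other listed miRNA probes (grey), 1 array per group; dotted lines mark 2-fold. miR-698 lies past 2-fold on both axes, at 1.21 and 1.83, and miR-689, miR-704, miR-714, miR-703 and miR-713 lie past it on the y axis only.

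The cell types were compared in 2 pairs of arrays that have no array in common, though each pair shares 1 array with each treatment comparison. In the first, untreated P815 against SCF-treated BMMC, 4 of 23 listed miRNAs were higher in P815 by 2-fold or more and 7 were lower, or 5 with open-ended differences at their bounds. Among all 353 listed probes 16.1% were higher and 24.4% lower, with 48 of the 353 lower at their bounds. As measured, the share of the block (17.4% higher and 30.4% lower) was near the background in both directions. In the second, imatinib-treated P815 against starved BMMC, 2 of 29 were higher and 2 lower, against 7.66% and 10.4% of 483 probes. The block's median was 0.25 in the first pair and 0.14 in the second.

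miR-720, the transfer RNA fragment, was lower in P815 in both pairs. Its probe read 2284 in starved BMMC and 1709 with SCF, but 245 in untreated P815, where it was not listed, and 333 with imatinib. Both BMMC arrays lay far above both P815 arrays. The difference was at least 3.99-fold in the first pair and 3.31-fold in the second, and it kept more than 2-fold under each alternative that gave a value. The array's control probe named for a transfer RNA, tRNA-Gly, read 3980, 1888, 3405 and 3266 in the usual order, lowest in SCF-treated BMMC. These are intensities before normalization, and a relation of this control to miR-720 was not tested.

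miR-700 had the same pattern at a smaller size. It read 1652 and 972 in BMMC without and with SCF and 283 and 352 in P815 without and with imatinib, and was at least 2.03-fold lower in P815 in the first pair and 2.22-fold lower in the second. miR-712, known in mouse endothelium as a miRNA induced by disturbed flow, read 1219 and 787 in BMMC against 240 and 307 in P815. It was at least 1.63-fold lower in the first pair, and its log2 difference of -0.95 in the second lay just under the 2-fold limit. miR-718 read 843 and 538 in BMMC against 213 and 294 in P815, at least 1.11-fold lower in the first pair and 1.32-fold lower in the second. These 4, miR-700, miR-712, miR-718 and miR-720, were the only ones of the 29 with both P815 arrays below both BMMC arrays (13.8%, against 31.0% of all 491 probes listed on at least 1 array).

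Brighter in P815 by rank were miR-691 and miR-705. The miR-691 probe read 6853 in starved BMMC, 5318 with SCF, 4992 in untreated P815 and 8140 with imatinib. Its intensity was thus alike in the cell types while most probes were dimmer in P815, and its rank went from 36 and 32 in BMMC to 6 and 3 in P815. On the normalized scale it was 3.08-fold higher in P815 in the first pair and 4.90-fold in the second.

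miR-705, which is known in mouse bone marrow stromal cells as a repressor of Hoxa10, read 4457 and 2996 in BMMC without and with SCF and 1821 and 4481 in P815 without and with imatinib. After normalization it was 2.02-fold and 3.60-fold higher in P815. Both P815 arrays lay above both BMMC arrays for 8 of the 29 (27.6%, against 32.6% of all 491), namely miR-680, miR-685, miR-691, miR-695, miR-705, miR-710, miR-711 and miR-721. The miR-695 probe read 590, 418, 389 and 371 in the usual order and was 2.10-fold higher in P815 in the first pair only. Of the 8, miR-691 and miR-705 passed 2-fold in both pairs, as did 4.48% of all probes, and 7.74% passed 2-fold lower in both.

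The higher side in P815 rests on the scaling between arrays. With median centring the first pair gave 0 higher and 8 lower, beside 11 and 126 of all 353 probes, whose median was -0.44. Without scaling it gave 0 higher and 10 lower, beside 3 and 177 of all probes, whose median was -1.04, and miR-705, miR-691 and miR-695 turned below 0. In the second pair 0 were higher and 15 lower without scaling, beside 2 and 301 of all 483 probes, whose median was -1.21. With median centring 5 were higher and 2 lower there, beside 36 and 59 of all probes. miR-705, at 1.01, and miR-695, at 1.07, lay just past the limit in the first pair, and miR-710, at 0.95, just short of it.

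Other differences of the first pair were not seen in the second, which leaves out untreated P815. In untreated P815 miR-689 was 4.01-fold, miR-698 4.48-fold and miR-714 2.53-fold lower than in SCF-treated BMMC, and miR-703 was 3.41-fold higher. The miR-698 and miR-714 probes lay close to the listing limit in untreated P815. For miR-703 the log2 difference was 0.85 with median centring and 0.25 without scaling. Its intensity in untreated P815, 1667, lay below the 1828 of starved BMMC. In the second pair the log2 differences were 0.45 for miR-689, 0.87 for miR-698, -0.34 for miR-714 and -0.13 for miR-703. None of these 4 reached 2-fold there. After normalization, miR-689 and miR-714 were at least 2-fold below each of the other 3 arrays in untreated P815. The same held for 3.87% of all 491 probes. On that scale miR-703 was at least 2-fold above each, as were 2.04%. On the other arrays 0 of the 29 stood apart in this way, against 1.43% of all probes above in SCF-treated BMMC, 1.63% above and 0.204% below in imatinib-treated P815, and 0.0% for the rest. Among 60 virus and worm probes listed on at least 1 array, 5 (8.33%) were at least 2-fold below each of the other 3 arrays in untreated P815 and 0 above.

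**Figure D4:**
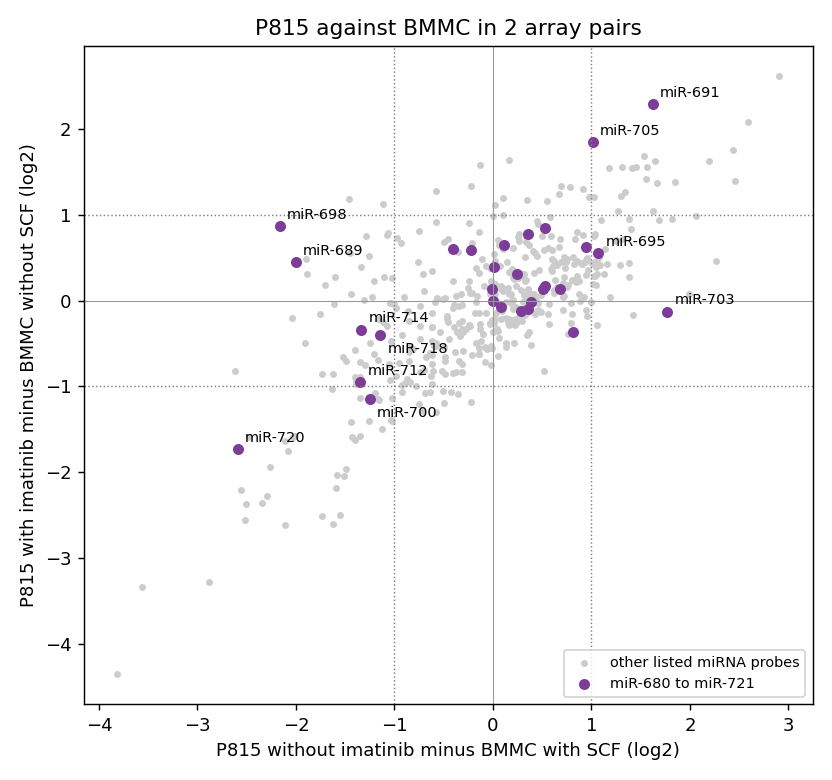
Log2 difference between untreated P815 and SCF-treated BMMC (x axis) against that between imatinib-treated P815 and starved BMMC (y axis), which share no array, for the 29 listed miRNAs of the block (purple) and the other listed probes (grey); dotted lines mark 2-fold. miR-720 and miR-700 lie past 2-fold on the lower side of both axes, miR-691 and miR-705 on the upper side of both, and miR-689, miR-698, miR-703 and miR-714 are among those past it on the x axis only.

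Entries with and without a gene in the reference table had different medians between the cell types. In the first pair, 4 of 6 listed entries without a gene were 2-fold lower in P815 (miR-689, miR-714, miR-720 and, as measured, the open-ended miR-712) and 0 higher, with a median of -1.34. Of 17 with a gene, 3 were lower and 4 higher, with a median of 0.51. Among all 353 listed probes 24.4% were lower and 16.1% higher in this pair. In the second pair the medians were -0.10 over 8 without a gene and 0.31 over 21 with one, so the gap was smaller without the untreated P815 array. The difference between the sets was not tested.

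miR-721 can be set beside the miRNAs that share its seed. Its probe read 996 and 693 in BMMC without and with SCF and 478 and 494 in P815 without and with imatinib. With imatinib its log2 difference was -0.52, beside -0.55 for the human-named miR-130a probe, -0.49 for miR-130b and -0.45 for miR-301. In untreated P815 against SCF-treated BMMC it lay at 0.68, while miR-130a lay at 0.05, miR-130b at -0.02 and miR-301 at -1.26. In imatinib-treated P815 against starved BMMC, miR-721 lay at 0.14, miR-130a at -0.64, miR-130b at -0.55 and miR-301 at -1.40. The imatinib differences of these probes lay close to each other and the cell-type differences did not. miR-695, which has another seed, also lay at -0.52 with imatinib, so such a value was not limited to probes of this seed.

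The normalized levels of the block were most alike between the BMMC arrays, as they were over all listed miRNA probes. Over the 29 listed miRNAs, Pearson's r of the normalized log2 levels was 0.98 for the BMMC pair and 0.89 for the P815 pair. The imatinib-treated P815 array correlated at 0.92 with either BMMC array, and untreated P815 at 0.83 and 0.84. Over all 491 listed miRNA probes r was 0.97 for the BMMC pair and 0.89 for the P815 pair. With starved and SCF-treated BMMC it was 0.83 and 0.80 for imatinib-treated P815, and 0.77 and 0.77 for untreated P815. The 29 include miR-709, whose normalized value is the same on every array by construction. These are descriptions across probes, which share each array's depth of signal and each probe's own brightness.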

How the data were processed

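Total RNA was labelled with Cy3 and hybridized to single-colour miRNA arrays, per the labels' protocols. Per the file headers, the deposited array files hold 1 linear intensity per probe, the mean of foreground medians, with no background column. The sources used here do not name the scanner or array design. Among the probes were 785 miRNA, 604 mismatch and 17 control probes. From a comparison of the files, the authors' deposited processed intensities equalled the array intensity minus the median mismatch probe, times 1 factor for each treated array (0.834 and 0.628), and were blank below 1.5 times that median. This rule matched all 802 entries on each array.

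Intensities were background-corrected by normexp (offset 50, limma 3.58.1, R 4.3.3), log2 transformed and quantile normalized over the 4 arrays on the miRNA probes. The procedure was tested on simulated data, in which arrays differed by a constant log2 shift and small noise and some probes changed on 1 array. Arrays whose intensities are distributed differently were not simulated, so this does not bear on the results that depended on the scaling. A difference open at 1 end is given as at least N-fold, against the higher of the other array's lowest listed value and the probe's own value there. Hairpins were folded with RNAfold 2.7.2. Groups came from the labels, with 1 array each, so no test was made; the number of arrays limits the precision. Named were miRNAs 2-fold apart in any comparison, the 8 brightest on any array and those with a known role; miR-706, miR-721 and the members near a limit were named after their values were seen. The members and lists were chosen with earlier results of these data known. None of the 41 has a mismatch probe, so the planned comparison with mismatch probes was not made. Other scalings, backgrounds, filters and the authors' values were tried.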

Additional observations from a re-analysis of the deposited data

Results flagged for a closer look

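miR-698 was higher on both treated arrays after normalization, although SCF stimulates KIT and imatinib is its inhibitor. KIT activity itself was not measured. The log2 difference of miR-698 was 1.21 for SCF in BMMC and 1.83 for imatinib in P815. Each value passed 2-fold and each rests on 1 pair of arrays, so the difference between the cell types was not tested. The highest virus or worm probe lay above miR-698 in each comparison, at 1.41 with SCF and 2.16 with imatinib. In untreated P815 the miR-698 probe lay at 1.54 times the mismatch median, close to the listing limit of 1.5.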

How the results depend on the processing

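Of 163 recomputed differences of single miRNAs past 2-fold, 138 moved by less than 1 SD of virus and worm probe differences, 21 moved by more and 4 turned sign. Part of the 138 could not move, because the listing and bound settings return the main value for miRNAs listed on both arrays. A move below 1 SD can also cross the 2-fold limit. In untreated P815 against SCF-treated BMMC that SD was 0.90, and miR-695 went from 1.07 to 0.54 with median centring within it. The sign turned for untreated P815 against SCF-treated BMMC, where miR-705 lay at -0.13 with median centring and at -0.74 without scaling, and miR-691 at -0.088 and miR-695 at -0.058 without scaling. Without scaling the counts higher and lower were 0 and 3 for SCF (median -0.66), 8 and 1 for imatinib, 0 higher with a median of -0.82 for untreated P815 against SCF-treated BMMC, and 0 and 15 (median -1.04) for imatinib-treated P815 against starved BMMC. With median centring they were 9 and 1 for imatinib, 0 higher in the first cell-type pair, whose median went from 0.25 to -0.22, and 5 higher in the second. In the authors' processed values SCF gave 0 higher and 18 lower (median -1.06). With no background correction 2 of 23 were higher in the first pair, beside 39 of all 353 probes. In the second pair 1 of 29 was lower, beside 35 of all 483 probes. With listing on both arrays 3 of 18 were lower in the first pair, beside 40 of all 232 probes. The cause was not tested, except that listing on both arrays admits fewer miRNAs. The cyclic loess, bound, unfiltered and within-cell-type settings moved no count by over 1.5 times. The authors' values were scaled separately by cell type and were not used between them. No paired analysis was possible because each group is 1 array. Brightness near the mismatch median limits the 12 miRNAs listed on no array.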
